A study of Arabidopsis thaliana with 3 samples.

Results

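The genes described here encode nuclear subunits of the 2 photosystems and of the electron transport chain that joins them, in Arabidopsis thaliana seedlings. They were chosen by a fixed list of gene identifiers and number 33 of the 37336 genes in the count table. The list holds 12 genes for photosystem I (PSI), 11 for photosystem II (PSII), 7 for the cytochrome b6f complex and soluble carriers, and 3 for the chloroplast ATP synthase. Antenna genes were not among them. The samples were 3 whole-seedling RNA libraries of wild-type Col-0 plants aged 7 days, enriched for polyadenylated RNA, in 1 untreated group. They were grown at 21 °C with 16 h of light and 8 h of dark on MS agar with 1.5% sucrose. The series concerns cohesin subunits and the monoubiquitination of histone H2A, but with wild type alone there was no contrast between genotypes. The labels do not say whether the samples came from separate plants or cultures, so the spread behind each p-value may be technical in part or whole.

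In the thylakoid membrane, PSII takes electrons from water and passes them through plastoquinone to the cytochrome b6f complex, from which the copper protein plastocyanin carries them to PSI. PSI passes them to the iron-sulphur protein ferredoxin, and ferredoxin-NADP reductase uses them to make NADPH, while the proton gradient drives the ATP synthase. The reaction-centre proteins that hold the pigments of charge separation are encoded in the chloroplast genome, and the nuclear genes listed here supply peripheral, docking and membrane subunits as precursors that are imported into the plastid. The word core in the usual name of this set is therefore loose, and PSBS, a photoprotective protein of PSII, is not a reaction-centre subunit. The 133 chloroplast-encoded identifiers in the table were all listed at 0, so nuclear and plastid subunits of a complex could not be compared.

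The libraries held 32967215, 31761722 and 27069921 counts in replicates 1, 2 and 3. Across the 19016 genes with enough counts to be tested, Pearson's r of log2(CPM + 0.5), a correlation across genes, was 0.993 between replicates 2 and 3 but 0.941 and 0.929 between replicate 1 and each of them. Replicate 1 thus stood apart from the others, and some of the results that turn on it are also given without it. CPM are counts per 1e6 counts of a TMM-scaled library, and levels of different genes were compared as CPM per kb of merged exons. At what hour seedlings were collected is not stated in the labels. In RNA from whole seedlings, fewer green cells and less RNA per green cell cannot be told apart.

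All 33 genes reached 1 CPM in every library, against 45.7% of all genes in the table. Together they took 4.79%, 5.997% and 5.75% of the counts in replicates 1, 2 and 3, a mean of 5.51% ± 0.64 (SD, n = 3). The exact binomial interval in replicate 1 ran from 4.78% to 4.79%, so counting error was far below the spread between libraries. PSI genes held 1.86% ± 0.187 of the counts, PSII genes 2.62% ± 0.343, the carriers 0.797% ± 0.0864 and the ATP synthase genes 0.231% ± 0.0236 (SD, n = 3). By mean CPM, 22 of the 33 ranked among the 100 most abundant genes of the table, which are 0.268% of it, and all 33 ranked among the 1000 most abundant, which are 2.68% of it. Those ranks take no account of length. Mean levels ran from 89.8 CPM per kb for FNR2 to 6442 CPM per kb for PSBR. Even the smallest count, 3735 for FNR2 in replicate 3, had an exact Poisson interval of 3616 to 3857.

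**Figure D1:**
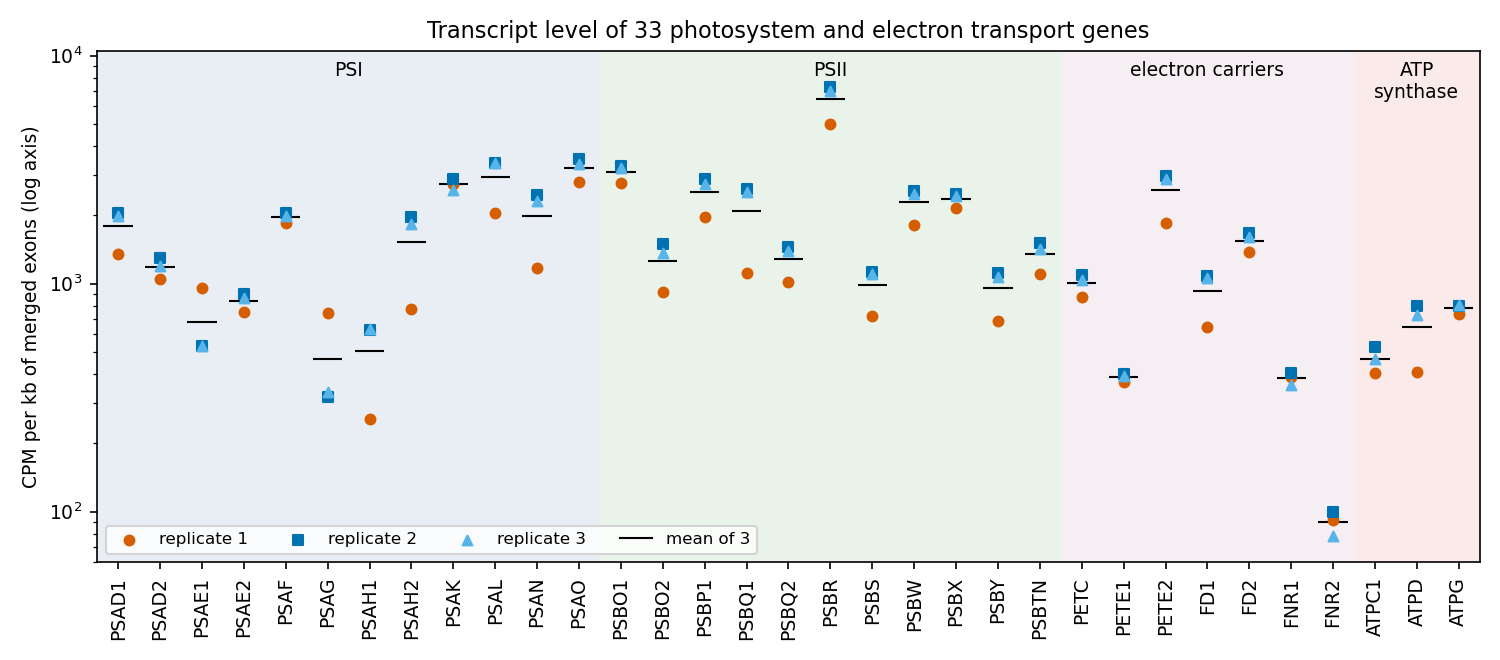
Level of each of the 33 genes in CPM per kb of merged exons (log axis), with 1 symbol per library and a line at the mean of the 3. PSBR stands highest at 6442 and FNR2 lowest at 89.8 CPM per kb, and the circles of replicate 1 lie below the other symbols for most genes but above them for PSAE1 and PSAG.

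In photosystem I, PSAL and PSAO, whose products sit at the side of the complex where mobile antenna can dock, were the highest single genes per kb, at 2938 ± 784 and 3220 ± 377 CPM per kb (SD, n = 3). PSAL (AT4G12800) had 2317, 3858 and 3872 CPM in replicates 1, 2 and 3, and PSAO (AT1G08380) had 2290, 2882 and 2739 CPM. Replicate 1 was the lowest library for both, while replicates 2 and 3 differed little. PSAF (AT1G31330), a subunit at the plastocyanin docking site, had 2218, 2458 and 2373 CPM. PSAK (AT1G30380), a small membrane subunit near the antenna, had 2102, 2221 and 1979 CPM. PSAF and PSAK were among the steadiest of the set, with coefficients of variation of 5.17% and 5.74%. PSAD1 (AT4G02770) and PSAD2 (AT1G03130) encode the stromal subunit that docks ferredoxin. They had 1530, 2309 and 2247 CPM, and 998, 1237 and 1145 CPM, again with replicate 1 lowest. PSAN (AT5G64040), a lumenal subunit at the plastocyanin side, was at 1189, 2498 and 2348 CPM, so that its level in replicate 1 was 0.476 times that in replicate 2.

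PSAG (AT1G55670, chromosome 1, 20802670 to 20803449), a membrane subunit related to PSAK, went the other way. It had 578, 249 and 261 CPM in replicates 1, 2 and 3, and replicate 1 was 2.32-fold above replicate 2. Over 61.4% of its exon length it shares positions with AT1G55673, annotated on the opposite strand, which had 0 counts in each library. Whether reads at shared positions were counted for either gene is not stated in the labels, and their part in these levels was not tested. In this table, 370 of the 375 protein-coding genes whose exon bases were all shared with another gene had 0 counts (98.7%), against 3604 of 19818 genes with no shared base (18.2%). Among genes with 50% to under 100% of exon bases shared it was 49.1%, and among genes with fewer shared bases 5.54%. Per kb of exon bases shared with no other gene, PSAG stood at 1205 CPM in place of 465 CPM. Of the 33 genes 11 share at least 1 exon base with another gene, and 4 share over 20%, namely PSAG, PSAH1 (53.3%), PSAE1 (34.1%) and PSAH2 (24.8%). PSAG and PSAH1 thus fall in the class where 49.1% of genes had 0 counts, and their levels are uncertain. PSAE1 and PSAH2 fall in the class at 5.54%, but their levels per kb still depend on whether shared bases enter the length.

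PSII genes were led by PSBR (AT1G79040), a small subunit needed for stable binding of the oxygen-evolving proteins. It had 3922, 5723 and 5507 CPM in replicates 1, 2 and 3 and ranked 12th in the table by mean CPM, uncorrected for length. The oxygen-evolving enhancer PSBO1 (AT5G66570), which stabilises the manganese cluster, had 4183, 4935 and 4835 CPM. Its duplicate PSBO2 (AT3G50820) had 1221, 1989 and 1815 CPM. PSBP1 (AT1G06680), another lumenal enhancer, had 2647, 3899 and 3697 CPM. In each of the 11 PSII genes replicate 1 was the lowest library, and replicate 2 the highest. The small membrane subunits were PSBW (AT2G30570) at 2177 ± 393, PSBX (AT2G06520) at 1688 ± 131 and PSBY (AT1G67740) at 1167 ± 288 CPM (SD, n = 3). PSBTN (AT3G21055), a small lumenal subunit, stood at 1068 ± 173 CPM (SD, n = 3). PSBS (AT1G44575), also named NPQ4, which is needed for the rapid dissipation of excess light as heat, had 1301, 2041 and 1999 CPM.

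The carriers begin with PETC (AT4G03280), the Rieske iron-sulphur protein of the cytochrome b6f complex, which had 956, 1195 and 1137 CPM in replicates 1, 2 and 3. The plastocyanin gene PETE2 (AT1G20340) had 2491, 4009 and 3872 CPM, whereas PETE1 (AT1G76100) had 387, 421 and 413 CPM. For ferredoxin, FD2 (AT1G60950) had 1349, 1639 and 1572 CPM and FD1 (AT1G10960) had 549, 923 and 901 CPM. The reductase genes were FNR1 (AT5G66190) at 580 ± 34.1 and FNR2 (AT1G20020) at 165 ± 19.99 CPM (SD, n = 3). Of the ATP synthase genes, ATPC1 (AT4G04640), the gamma subunit of the rotor stalk, had 614, 805 and 712 CPM. ATPD (AT4G09650), the delta subunit, had 469, 922 and 837 CPM, and ATPG (AT4G32260), a subunit of the peripheral stalk, had 820, 887 and 904 CPM.

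Subunits encoded by 2 genes were compared with the others after summing their genes, which gave 25 subunits. Per kb, PSBR was highest at 5003, 7300 and 7024 CPM in replicates 1, 2 and 3, with no overlap with the next subunit. PSBO followed at 4347 ± 574, PSBQ at 3363 ± 1071, PSAO at 3220 ± 377 and PSAD at 2968 ± 503 CPM per kb (SD, n = 3). At the bottom stood PSAG at 465 ± 240, ATPC1 at 467 ± 62.5, FNR at 474 ± 33.5, ATPD at 645 ± 209 and ATPG at 779 ± 39.7 CPM per kb (SD, n = 3). For 21 of the 24 neighbouring pairs in this order the ranges over the libraries overlapped, so most adjacent ranks were not separated by the data. The breaks lay below PSBR, below PSAF and below PSBTN. Those below PSAF and PSBTN rest on merged exon length, since per kb of unshared exon bases PSAE stood at 1962 against 1953 for PSAF, and PSAG came directly below PSBTN.

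The highest subunit exceeded the lowest 13.9-fold by mean, 12.4-fold in replicate 1, 22.9-fold in replicate 2 and 21.0-fold in replicate 3. Without replicate 1 the fold was 21.9. PSBR was the highest subunit in each case, and PSAG the lowest except in replicate 1, where ATPC1 was lowest. Per kb of exon bases shared with no other gene the fold was 14.8 by mean, with ATPC1 lowest. Within PSI the highest subunit (PSAO by mean, PSAL in replicate 3) exceeded the lowest, PSAG, 6.92-fold by mean, 3.77-fold in replicate 1, 11.04-fold in replicate 2, 10.2-fold in replicate 3 and 10.5-fold without replicate 1. Per kb of exon bases shared with no other gene PSAO and PSAG stood 2.67-fold apart by mean, since PSAG was then at 1205 CPM per kb. Within PSII the fold was 6.73 on merged exons and 7.20 on unshared exon bases, and within the ATP synthase 1.67 on either length. Over the 9 PSI subunits the median log2 level was 10.85, 11.34 and 11.26 in replicates 1, 2 and 3, against 10.93, 11.31 and 11.28 over the 9 PSII subunits. The difference, PSI minus PSII, was −0.024 ± 0.056 (SD, n = 3; two-sided exact sign-flip permutation test over the libraries, p = 0.75). It turned to 0.077 per kb of unshared exon bases and to 0.0054 without replicate 1, so no order between the photosystems was established. It was −0.20 per coding length, −0.22 with each gene taken on its own and −0.098 with PSBS left out, with PSI lower in 3 of 3 libraries in each case (exact permutation p = 0.25). With 200 bases taken off each exon length it was 0.051, with PSI higher in 3 of 3 libraries (exact permutation p = 0.25). With 3 libraries this exact permutation test cannot go below p = 0.25.

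**Figure D2:**
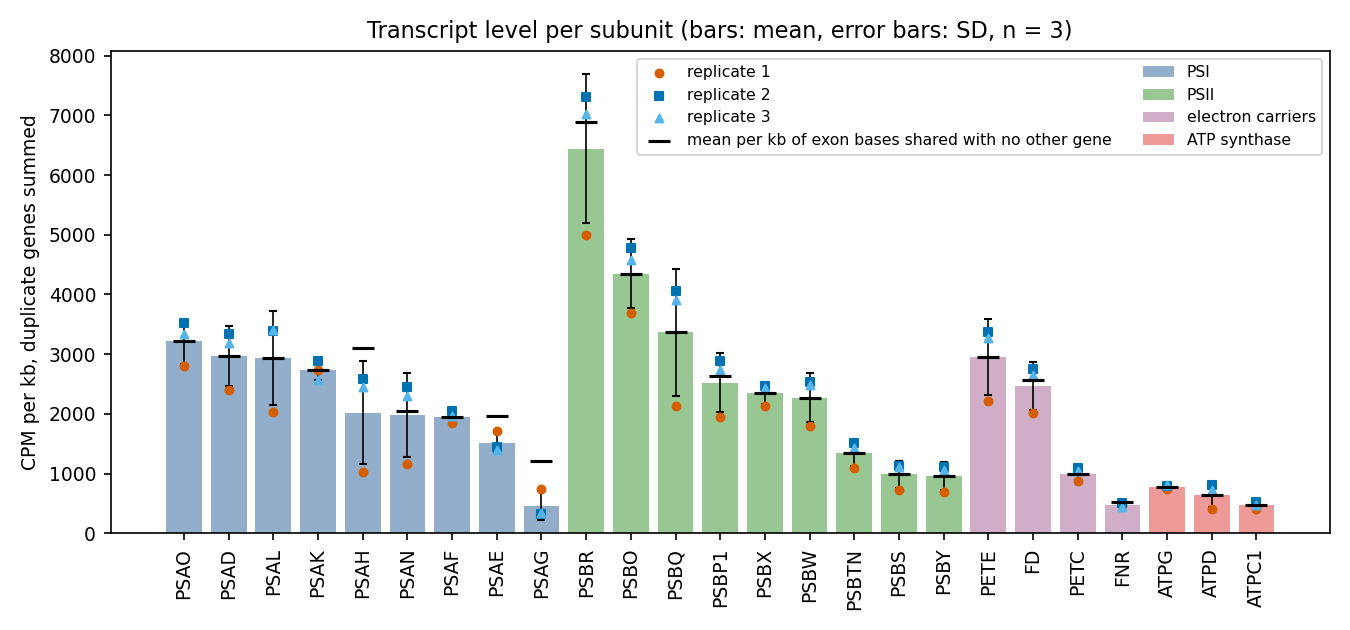
Level per subunit in CPM per kb with duplicate genes summed. Bars give the mean and error bars the SD of the 3 libraries, symbols the libraries, and black dashes the mean per kb of exon bases shared with no other gene; dashes away from the bar include those of PSAG, PSAH, PSAE and PSBR, at 1205, 3098, 1962 and 6890 CPM per kb.

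Of the 25 subunits, 8 are encoded by 2 genes of this list each, and in 7 of these 8 pairs the same gene was higher per kb in 3 of 3 libraries. PSBQ holds to this on merged exon length but not per coding length or without length correction, where replicate 1 differed in direction. The plastocyanin pair differed most. PETE1 stood at 370, 402 and 394 CPM per kb in replicates 1, 2 and 3, against 1849, 2976 and 2874 for PETE2, a log2 ratio of −2.69 ± 0.32 (SD, n = 3) or 6.46-fold in favour of PETE2. Per coding length the log2 ratio was −3.36, and without length correction −3.05. FNR1 exceeded FNR2 4.29-fold, with a log2 ratio of 2.101 ± 0.093, and PSBO1 exceeded PSBO2 2.49-fold, with 1.32 ± 0.24. FD1 was below FD2, with a log2 ratio of −0.77 ± 0.28. PSAD1 exceeded PSAD2 by 0.58 ± 0.19 and PSBQ1 exceeded PSBQ2 by 0.61 ± 0.42 on the log2 scale. No pair could pass a test, since the two-sided exact sign-flip permutation gave p = 0.25 (n = 3) at the least and 0.286 after Benjamini-Hochberg adjustment over the 8 pairs.

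PSAH1 and PSAH2, for the PSI subunit at the docking site of mobile antenna, kept the most constant ratio. PSAH1 had 332, 817 and 819 CPM and PSAH2 had 543, 1377 and 1277 CPM in replicates 1, 2 and 3. Both were thus far lower in replicate 1, yet their log2 ratio per kb was −1.598, −1.64 and −1.53. PSAH1 exons overlap AT3G16130, which had 0 counts in each library. Per kb of exon bases shared with no other gene the log2 ratio of PSAH1 to PSAH2 was −0.90 in place of −1.59, and it was −0.70 per coding length. PSAE1 and PSAE2, for a stromal subunit at the ferredoxin docking site, were the pair without a fixed order per kb of merged exons. PSAE1 (AT4G28750, chromosome 4, 14202758 to 14204061) had 766, 426 and 424 CPM and PSAE2 (AT2G20260, chromosome 2, 8736734 to 8737767) had 456, 549 and 525 CPM. PSAE1 was the higher gene in replicate 1, at a log2 ratio per kb of 0.36, and the lower in replicates 2 and 3, at −0.76 and −0.70. Without replicate 1 the mean ratio was −0.73.

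**Figure D3:**
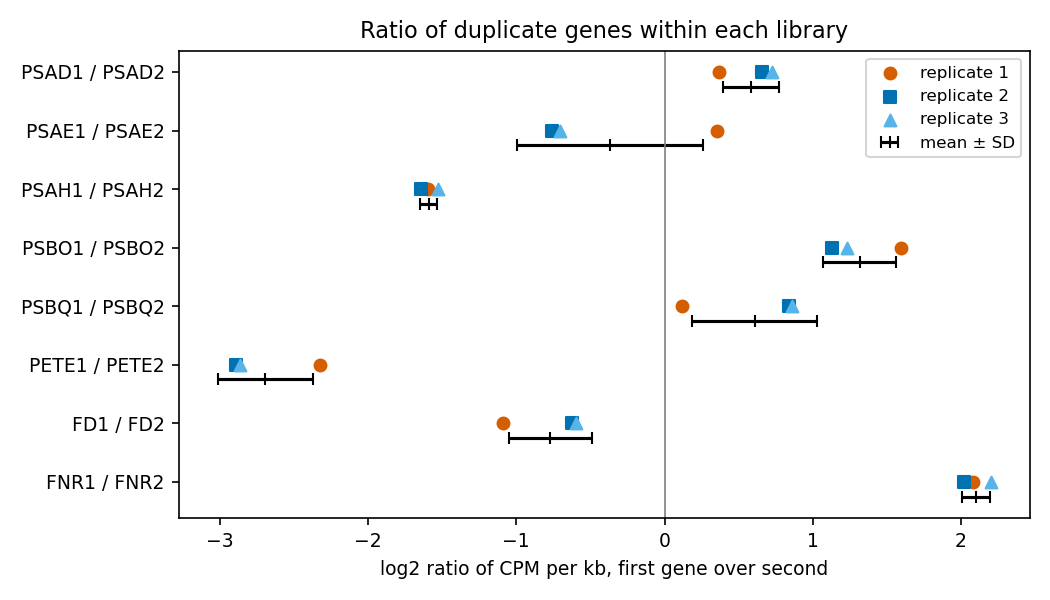
Log2 ratio of CPM per kb of the first gene of each pair over the second, with 1 symbol per library and the mean ± SD (n = 3) below it. PETE1/PETE2 lies farthest left at −2.69, FNR1/FNR2 farthest right at 2.101, and PSAE1/PSAE2 is the pair whose libraries fall on both sides of 0.

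Reads of near-identical copies can be split or lost in counting, so the pairs were aligned. Identity over aligned coding bases ran from 74.95% for PETE1 and PETE2 to 88.0% for PSAD1 and PSAD2. No window of 75 exon bases was shared by the members of any pair. The longest run shared by a pair, 35 bases within the coding sequences of PSAD1 (AT4G02770, on chromosome 4) and PSAD2 (AT1G03130, on chromosome 1), is shown as the closest stretch between duplicates in the set, with T for U.
PSAD1 and PSAD2 shared run: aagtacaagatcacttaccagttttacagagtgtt
The read length is not stated in the labels, so how many reads fit wholly within such a run is unknown. The shortest of these longest runs, 17 bases, was found for the plastocyanin pair and for the reductase pair.

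Sequence upstream of the annotated start was read for the 33 genes from the RefSeq genome TAIR10.1, over 250 bases. The windows of 3 pairs are shown, namely the pair with the largest ratio (PETE), the pair with the steadiest ratio (PSAH) and the pair whose order differed between libraries (PSAE). Capitals mark 5 short motifs searched on both strands: the G-box CACGTG, bound by light-signalling factors, the I-box GATAAG, the GT-1 core GGTTAA, the motif CCAATC reported for GLK factors, and TATAAA, where matches on opposite strands can overlap. The windows lie at chr1:28554931-28555180, minus strand (PETE1); chr1:7043393-7043642, minus strand (PETE2); chr3:5469595-5469844, minus strand (PSAH1); chr1:19454548-19454797, plus strand (PSAH2); chr4:14204062-14204311, minus strand (PSAE1) and chr2:8736484-8736733, plus strand (PSAE2).
PETE1: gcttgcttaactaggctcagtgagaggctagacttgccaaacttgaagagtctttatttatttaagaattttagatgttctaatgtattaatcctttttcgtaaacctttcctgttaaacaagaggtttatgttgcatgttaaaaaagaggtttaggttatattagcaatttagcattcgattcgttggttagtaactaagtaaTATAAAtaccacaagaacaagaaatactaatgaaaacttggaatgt
PETE2: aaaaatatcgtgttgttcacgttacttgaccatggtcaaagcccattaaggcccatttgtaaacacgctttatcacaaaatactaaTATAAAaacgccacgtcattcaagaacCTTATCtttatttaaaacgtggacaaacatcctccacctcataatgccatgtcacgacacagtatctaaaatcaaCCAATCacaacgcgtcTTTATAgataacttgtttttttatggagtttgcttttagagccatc
PSAH1: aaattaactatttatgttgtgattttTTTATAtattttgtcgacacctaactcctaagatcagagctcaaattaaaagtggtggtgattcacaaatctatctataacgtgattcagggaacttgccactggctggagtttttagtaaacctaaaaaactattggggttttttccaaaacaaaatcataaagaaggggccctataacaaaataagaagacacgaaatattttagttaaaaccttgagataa
PSAH2: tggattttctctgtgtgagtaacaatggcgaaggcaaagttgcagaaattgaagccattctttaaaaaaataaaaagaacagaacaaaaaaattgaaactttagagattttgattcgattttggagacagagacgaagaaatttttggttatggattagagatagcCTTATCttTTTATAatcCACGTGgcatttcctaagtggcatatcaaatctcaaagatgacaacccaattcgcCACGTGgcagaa
PSAE1: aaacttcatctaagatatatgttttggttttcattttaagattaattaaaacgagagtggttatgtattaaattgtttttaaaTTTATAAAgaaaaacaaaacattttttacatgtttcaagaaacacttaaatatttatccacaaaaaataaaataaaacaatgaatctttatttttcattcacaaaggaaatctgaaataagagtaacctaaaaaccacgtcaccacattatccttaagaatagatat
PSAE2: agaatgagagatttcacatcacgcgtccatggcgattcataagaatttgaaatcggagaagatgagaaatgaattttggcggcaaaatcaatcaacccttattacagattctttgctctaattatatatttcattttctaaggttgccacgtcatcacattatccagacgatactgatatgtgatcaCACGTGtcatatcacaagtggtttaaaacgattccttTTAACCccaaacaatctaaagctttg
PETE1 held TATAAA alone, whose match began 46 bases upstream of the start. PETE2 held CCAATC at 62 and TATAAA at 164 bases upstream, with an I-box at 137 and another TATAAA match at 46 on the other strand. PSAH2 held 2 G-boxes, at 67 and 12 bases upstream, with an I-box at 84 and a TATAAA match at 76, both on the other strand. PSAH1 held only a TATAAA match 224 bases upstream, also on the other strand. PSAE2 held a G-box at 63 and, on the other strand, a GT-1 core at 26 bases upstream. PSAE1 held only overlapping TATAAA matches, at 167 on the other strand and at 165 bases upstream. Its window lies within the annotated span of AT4G28755.

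Over the whole set, a G-box lay in the window of 6 of the 33 genes (18.2%), namely PSAE2, PSAH2, PSBQ1, PSBQ2, PSBTN and ATPD, against 6.49% of 27443 protein-coding genes. PSAH2, PSBQ1 and PSBQ2 held 2 each. An I-box was found in 9 of 33 (27.3%, against 12.3%), GGTTAA in 7 (21.2%, against 14.6%), CCAATC in 4 (12.1%, against 10.2%) and TATAAA in 16 (48.5%, against 47.3%). Over 16748 detected protein-coding genes the G-box share was 7.74%. For the other motifs, in the order given, it was 12.5%, 15.5%, 10.7% and 45.6%. In 8 of the 33 windows, among them those of PSAL, PSBW and PSBS, none of the 5 was present. For windows with none of the 5, or with 2 G-boxes, no share over all protein-coding genes was computed. A match describes the letters and is not a binding site, and no match was tested against level. At the median the genes were also compact, with 1095 exon bases and 615 coding bases, against 1824 and 1182 over detected protein-coding genes. Not every gene was short, since FNR2 had 1834 exon bases. In 12 of 33 (36.4%) every annotated transcript had 1 exon, against 11.1% of detected protein-coding genes. Of the set, 15 genes lie on chromosome 1 and 9 on chromosome 4.

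Most of the genes were lower in replicate 1 than in each of the other libraries. That held for 28 of the 33, against 43.8% of the 19016 genes tested, and 2 were highest there, against 45.4%. The median log2 difference of the set was −0.46 from replicate 2 and −0.37 from replicate 3, where the medians of all genes tested were 0.01 and 0.01. Between replicates 2 and 3 the median of the set was 0.06, beside 0.01 over all genes tested. A difference of over 1.5-fold from both other libraries was seen for 10 genes lower in replicate 1, against 13.3% of genes tested, and for 2 genes higher there, PSAE1 and PSAG, against 14.3%. Between replicates 2 and 3, 0 of the 33 differed by over 1.5-fold, against 2.78% of genes tested, and the largest log2 difference was 0.35, for FNR2. By group, replicate 1 was lowest in 11 of 11 PSII genes, 9 of 12 PSI genes, 5 of 7 carrier genes and 3 of 3 ATP synthase genes.

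The spread of single genes did not pass a test. By edgeR's goodness-of-fit test, which asks whether a gene varies between libraries more than genes of like abundance, 0 of the 33 had a Benjamini-Hochberg adjusted p under 0.05, against 2.02% of genes tested. On simulated counts this test recovered 109 of 200 genes raised 4-fold in 1 library. The largest difference in the set was smaller, with PSAH2 in replicate 1 at 0.394 times its level in replicate 2. The test could thus miss differences of the size seen here, though recovery at the abundance of this set, or for lowered genes, was not measured. At an unadjusted p under 0.05 stood 4 of the 33, against 7.45% of genes tested, namely PSAH1, PSAG, PSAH2 and PSBQ1. Their adjusted p was 0.273, 0.274, 0.280 and 0.382 from the same edgeR test. These were 3 of the 11 genes that share exon bases with another gene and 1 of the 22 that share none. DESeq2 marked 0 of the 33 as dispersion outliers, against 0.121% of genes tested. PSBQ1 (AT4G21280), a lumenal protein that helps PSII hold calcium and chloride, had 1105, 2592 and 2514 CPM in replicates 1, 2 and 3, and its duplicate PSBQ2 (AT4G05180) had 1298, 1844 and 1763 CPM. PSBQ1 was over 2-fold lower in replicate 1 than in either other library, while its ratio to PSBQ2 was 0.12 in replicate 1 and 0.84 and 0.86 in the others on the log2 scale. At the other end PETE1, ATPG and PSAF varied least, with an SD of log2(CPM + 0.5) of 0.063, 0.074 and 0.075, where the median was 0.28 over the set and 0.26 over all genes tested.

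**Figure D4:**
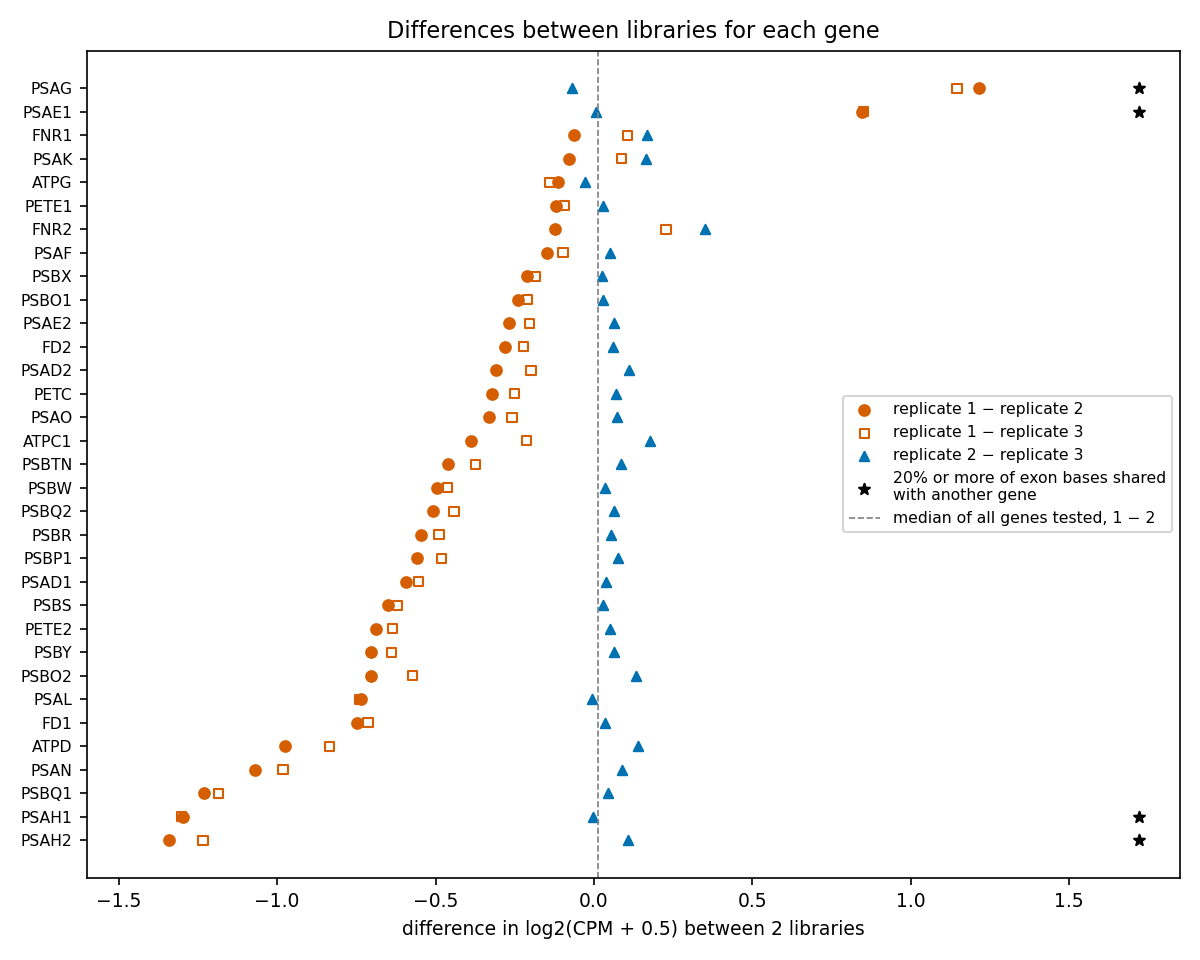
Differences in log2(CPM + 0.5) between each pair of libraries for the 33 genes, ordered by replicate 1 minus replicate 2; stars mark genes with at least 20% of exon bases shared with another gene. Replicate 2 minus replicate 3 stays between −0.069 and 0.35, while PSAG at 1.22 and PSAH2 at −1.34 bound the differences of replicate 1 from replicate 2.

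Markers of root tissue were also lower in replicate 1. Of the 13 listed root markers 9 could be tested, and all 9 were lowest in replicate 1. The 13 summed to 782, 2156 and 2206 CPM in replicates 1, 2 and 3. PYK10, a root-rich glucosidase, made up most of that sum at 737, 1950 and 2014 CPM. Of the 9 tested, 5 passed the edgeR test, namely EXPA18, IRT1, PRX44, TIP2;3 and CASP1, a protein of the endodermal barrier, at 1.88, 28.02 and 27.6 CPM (adjusted p = 8.07e-06), and NRT2.1 was at 0 in each library. The sum over the 5 leaf markers was 32127, 38617 and 36467 CPM. Of these 5, 4 were lowest in replicate 1 and 1 was highest there. The latter was RBCS1A, the most abundant of them, at 13818, 13698 and 12987 CPM in replicates 1, 2 and 3. The part of root and leaf markers in the differences of the photosynthesis genes was not tested. The 22 genes of the set that share no exon base with another gene gave medians of −0.42 and −0.32 for replicate 1 minus replicates 2 and 3, and 20 of them were lowest in replicate 1.

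**Figure D5:**
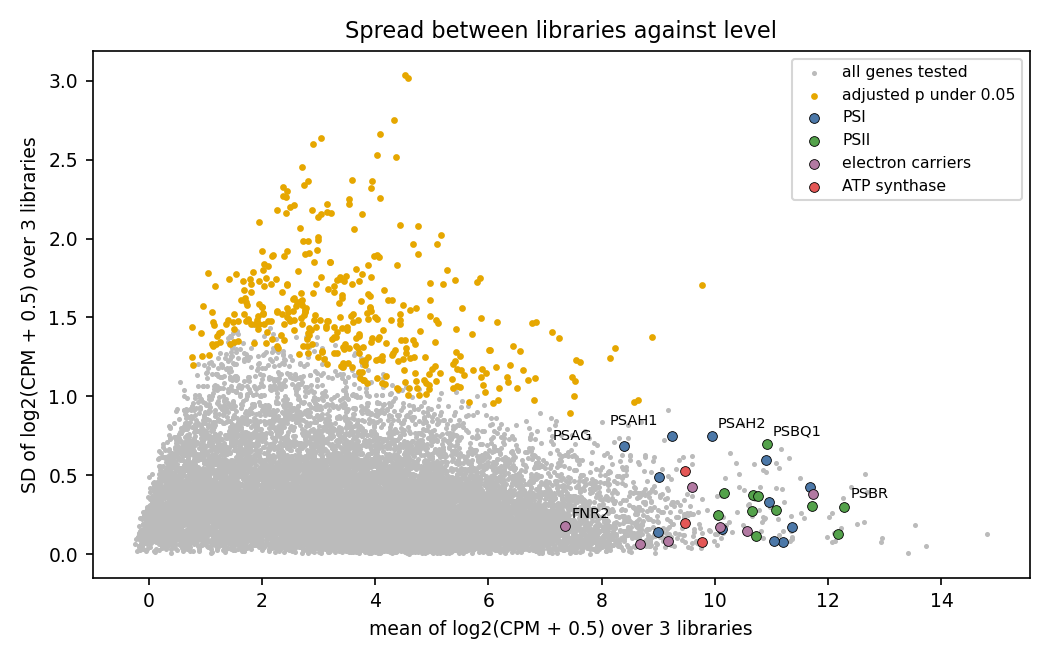
SD of log2(CPM + 0.5) over the 3 libraries against its mean for the 19016 genes tested, with those at an adjusted p under 0.05 in yellow and the 33 genes in larger coloured points. The 33 lie at the right, among abundant genes, with SDs from 0.063 to 0.75 and none past the threshold.

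The 33 genes had a median of 1286 CPM per kb, against 56.4 for a mixed list of 28 further genes around electron transport, which also holds regulators, assembly factors and root-type forms of ferredoxin and its reductase. Of these 28, 25 were detected, 13 of 25 were lowest in replicate 1 and 10 of 25 highest there, and 0 of 25 passed the edgeR test. CURT1A and CURT1B, which bend the edges of grana membranes, were highest at 905 ± 58.1 and 823 ± 81.8 CPM per kb, followed by PETM, a small cytochrome b6f subunit, at 749 ± 135 (SD, n = 3). The lowest were ATPC2 and FDC1, listed at 0 in each library, and NDHL, with 4, 1 and 0 counts. All exon bases of these 3 are shared with other genes, so their values say little about their transcripts, and they enter the median of 56.4. FD3, the ferredoxin of roots and other non-green tissue, was picked after its values were seen. It had 31.97, 61.5 and 77.1 CPM in replicates 1, 2 and 3, and was lowest in replicate 1.

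Beside that median of 1286, the 16 listed antenna genes, a part of the family, had one of 3341 CPM per kb, with 13 of them among the 1000 most abundant genes, and the 14 listed Calvin cycle genes, none of them for Rubisco, had a median of 485. The levels ran from 89.8 to 6442 CPM per kb in the set, 10.1 to 6030 among the listed antenna genes and 107 to 2361 among the listed Calvin cycle genes. Replicate 1 was the lowest library for 16 of 16 of these antenna genes and 11 of 14 of these Calvin cycle genes. GAPA and FBA2, both lowest in replicate 1, are in the Calvin cycle list and also among the leaf markers. With 1 group of samples, no difference between these lists was tested.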

How the data were processed

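Raw counts for each gene were deposited by the authors as whole numbers, for 3 wild-type libraries of polyadenylated RNA. Tools listed in the submitters' processing notes, without role or order, are featureCounts 1.6.1, HISAT2 2.1.0 and DESeq2, beside the build TAIR10. For the annotation, strand setting, filters and handling of reads on shared positions, the answer was not given in the sources used here. A protocol in the labels describes oligo(dT) enrichment and random-hexamer priming.

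Gene structures, coordinates and upstream sequence came from RefSeq TAIR10.1, to which 37051 of 37336 identifiers matched; the others were organelle-encoded. CPM used TMM factors of 1.079, 0.963 and 0.962 (edgeR 4.0.16, R 4.3.3). Levels per kb used merged exons and a pseudocount of 0.1 in log ratios. Variation was tested with edgeR after filterByExpr, as goodness of fit to an intercept-only model with trended dispersion, with Benjamini-Hochberg adjustment over 19016 genes at 0.05. Duplicate pairs and photosystems were compared by exact sign-flip permutation. Intervals are at 95% and cover counting error only. The goodness-of-fit test was tested on simulated data. Coding sequences were aligned with Biopython 1.88.

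Members and lists were chosen with earlier results of these data known. All 33 genes could be named. Of the other lists, the 3 highest and 3 lowest per kb and any past the threshold could be named. FD3, RFNR1 and RFNR2 were named outside this rule.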

Additional observations from a re-analysis of the deposited data

How the results depend on the processing

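With 3 libraries in 1 group, no genotype or treatment effect could be measured, and no pair of duplicates could reach p under 0.25. Samples could not be paired between groups because there is only 1 group. Coding length, unshared exon bases, leaving out a replicate for subunit levels and genes without overlap were alternatives chosen after seeing the data. Total counts in place of TMM shifted all genes: 25 of the 33 genes were then lowest in replicate 1, against 33.7% of genes tested, with a median difference of −0.30 from replicate 2 and −0.21 from replicate 3 where the median of all genes tested was 0.17 and 0.16. The count of genes past the edgeR threshold was 0 of 33 under each of the 6 alternative fits and by DESeq2, with 1 to 5 at an unadjusted p under 0.05 and a lowest adjusted p of 0.0736 with total counts. Over all genes tested the same edgeR test called 384, against 60 without replicate 1, 119 without replicate 2 and 129 without replicate 3, and DESeq2 marked 23.

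The mean log2 ratio of PSAE1 to PSAE2 reversed from −0.37 to 0.026 without length correction, 0.046 per coding length and 0.075 per unshared exon bases. The difference PSI minus PSII reversed from −0.024 to 0.095 without length correction, 0.051 with 200 bases taken off each exon length and 0.077 per unshared exon bases, and ranged from −0.051 to 0.0054 when a replicate was left out. For PSAE the ratio ranged from −0.73 to −0.17 when a replicate was left out. The cause was not tested. The fold between the highest and the lowest subunit ranged from 13.2 to 21.9 when a replicate was left out. The mean ratio of each other duplicate pair kept its direction under each alternative, but that of PSBQ1 to PSBQ2 was 0.26 without length correction and 0.29 per coding length (exact permutation p = 0.5 in both), against 0.61, and the share of counts stayed within 5.27% to 5.87% when a replicate was left out.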
